A study of Mus musculus with 4 samples.

Results

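Early response and stress genes were followed across the cell classes of the mouse kidney in 10 members, Fos, Jun, Egr1, Atf3, Klf2, Klf6, Btg2, Gadd45a, Gadd45g and Cdkn1a. The members were chosen by gene symbol, and all 10 were found among the 25636 genes of the count tables. Their Ensembl identifiers in the tables are ENSMUSG00000021250 (Fos), ENSMUSG00000052684 (Jun), ENSMUSG00000038418 (Egr1), ENSMUSG00000026628 (Atf3), ENSMUSG00000055148 (Klf2), ENSMUSG00000000078 (Klf6), ENSMUSG00000020423 (Btg2), ENSMUSG00000036390 (Gadd45a), ENSMUSG00000021453 (Gadd45g) and ENSMUSG00000023067 (Cdkn1a). Nuclei came from the kidney cortex of female mice and were profiled by droplet-based 3' RNA sequencing, in which each captured RNA molecule carries a unique molecular identifier (UMI). The 4 groups were MRL/lpr mice at 6 weeks, C57BL/6 mice at 6 weeks, MRL/lpr mice at 10 weeks and C57BL/6 mice at 10 weeks, and values below keep this order. MRL/lpr mice lack normal Fas, a death receptor, through the lpr mutation and come down with a lupus-like nephritis, while C57BL/6 is an inbred strain used as the control. No MRL mice with intact Fas were included, so the Fas mutation, the strain background and disease cannot be told apart. Each group had 1 library, the number of animals behind it is not given in the sources used here, and no difference between groups has a replicate check. No test was run, and every interval given is a 95% interval that covers counting error only.

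Many of these genes are immediate early genes, which are transcribed within minutes of a stimulus because their activators already sit in the cell. Fos and Jun encode the paired subunits of the transcription factor AP-1, Egr1 and the KLF proteins are zinc finger transcription factors, and Atf3 is a stress-induced repressor of the same leucine zipper class as AP-1. Btg2, Gadd45a and Cdkn1a are targets of p53 and restrain growth, and Gadd45g is a relative of Gadd45a that binds stress kinases. Tissue handling before nuclei are fixed or frozen is known to raise several of these genes, and cell types differ in how strongly they respond.

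The kept nuclei numbered 9364, 10010, 9490 and 9617, with a median of 598 to 714 UMIs per nucleus. The lowest UMI count of a nucleus was 308 in MRL/lpr at 6 weeks and 206 to 228 in the other libraries. Mitochondrially encoded genes took 0.126% of UMIs in MRL/lpr at 10 weeks and 0.271 to 0.297% in the other libraries, and ribosomal protein genes took 1.19% there and 1.63 to 2.02% elsewhere. Any 2 libraries shared 112 to 143 cell barcodes over the 6 pairs of libraries. Raw marker UMIs placed 81.8 to 86.4% of nuclei in 1 of 9 classes, and each class had 2 or more of its own fixed markers and 0 markers of another class among its 10 leading genes. The same markers set the classes, so this is no independent check of them. Proximal tubule-like nuclei numbered 18322 and the immune-like class 303. Genes of the proximal tubule that were not used to place nuclei reached 6.69 to 23.5% of their proximal tubule level in the other 8 classes. That share times the proximal tubule level of a member is called its carry-over level below. Endothelium-like nuclei of MRL/lpr at 6 weeks had the highest carry-over share.

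The members had very different depths. Gadd45g had 5347 UMIs over all kept nuclei, Jun 1783, Klf2 1167, Gadd45a 1029, Klf6 956, Btg2 815, Egr1 395, Cdkn1a 379, Fos 291 and Atf3 25. A member was compared in a class where it had at least 50 UMIs over the 4 libraries. This left 8 members in the proximal tubule, all except Fos and Atf3, and 23 pairs of a member and a class outside it, with 0 in the immune-like class.

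Promoter sequences were examined because several members are known to be switched on together. RefSeq promoters of build GRCm38.p6 matched 9 of the 10 members, all but Egr1, through 10 start sites, and the 250 bases before each start were searched on both strands. The cyclic AMP and ATF motif TGACNTCA lay in 3 of the 10 member promoters and in 7.49% of 32851 promoters in all. The TATA box TATAAA lay in 2 of them and in 12.4% of all, and the CCAAT box in 5 and in 33.8% of all. The AP-1 motif TGANTCA lay in 0 of the 10 member windows and in 6.75% of all. A match describes the letters only. The promoters of Jun, Klf6 and Btg2 are printed because they hold the ATF motif, and those of Fos and Gadd45g because they hold the TATA box. Each is given from its upstream end to the base before the start, on the strand of the gene, with every match to TGACNTCA, TATAAA or CCAAT on either strand in capitals (ATTGG is CCAAT on the other strand). The windows shown are 250 bases for Btg2 and the last 150 for the others.
Jun (chr4:95052223-95052372, minus strand): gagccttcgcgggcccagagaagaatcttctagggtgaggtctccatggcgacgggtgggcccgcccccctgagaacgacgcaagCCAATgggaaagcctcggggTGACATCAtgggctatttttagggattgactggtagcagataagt
Klf6 (chr13:5861339-5861488, plus strand): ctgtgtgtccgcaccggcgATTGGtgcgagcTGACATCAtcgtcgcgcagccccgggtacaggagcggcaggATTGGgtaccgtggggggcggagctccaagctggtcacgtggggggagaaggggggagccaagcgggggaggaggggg
Btg2 (chr1:134079156-134079405, minus strand): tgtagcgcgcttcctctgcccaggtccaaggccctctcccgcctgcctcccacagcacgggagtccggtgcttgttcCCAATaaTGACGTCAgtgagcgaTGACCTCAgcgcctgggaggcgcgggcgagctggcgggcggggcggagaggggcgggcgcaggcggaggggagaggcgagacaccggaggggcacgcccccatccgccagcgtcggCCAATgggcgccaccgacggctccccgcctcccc
Fos (chr12:85473740-85473889, plus strand): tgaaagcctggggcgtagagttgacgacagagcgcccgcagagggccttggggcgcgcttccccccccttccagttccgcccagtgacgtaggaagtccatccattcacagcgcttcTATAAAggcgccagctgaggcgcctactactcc
Gadd45g (chr13:51846525-51846674, plus strand): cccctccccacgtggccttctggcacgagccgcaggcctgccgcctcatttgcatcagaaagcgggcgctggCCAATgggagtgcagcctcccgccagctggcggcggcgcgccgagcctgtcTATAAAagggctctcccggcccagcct

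Jun had 1 TGACNTCA match, from base -45 to -38 before its start, and Klf6 had 1 from -119 to -112. Btg2 had 2 such matches, from -166 to -159 and from -150 to -143. The TATA box of Fos lay from -33 to -28 and that of Gadd45g from -27 to -22. No overlap between the printed motifs was found in these windows.

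**Figure D1:**
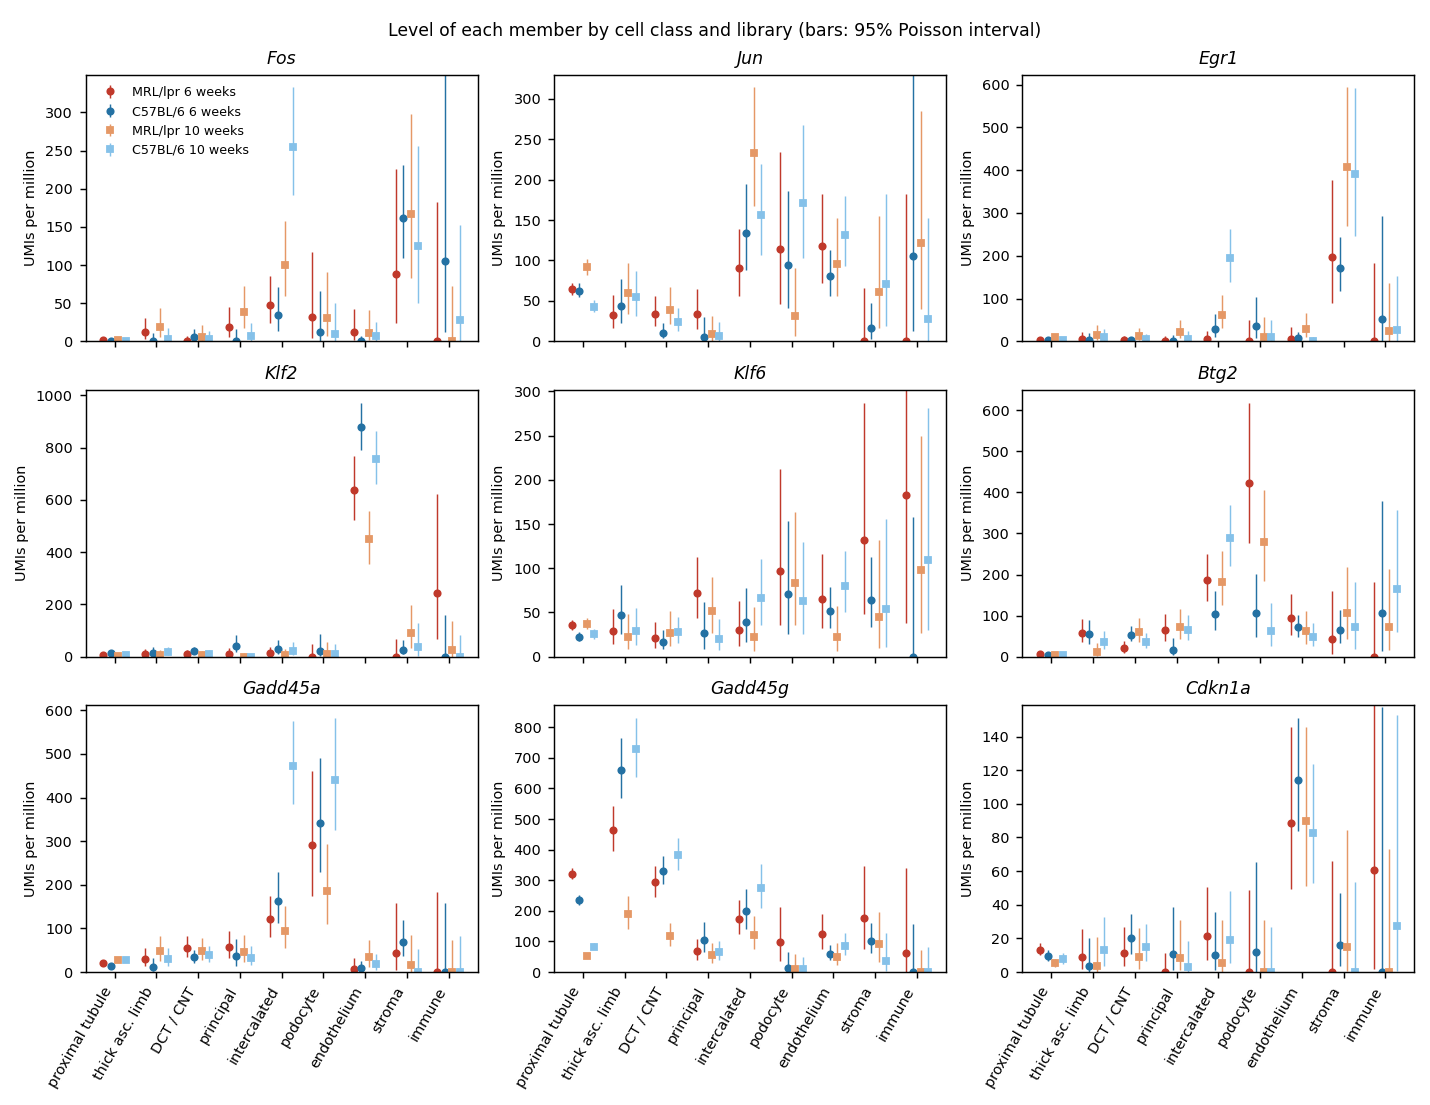
Level of 9 members (CPM) in 9 cell classes, with a point for each of the 4 libraries and bars for the 95% Poisson interval; bars of thinly filled classes run past the panel. Klf2 was highest in endothelium-like nuclei (449 to 878 CPM), Gadd45g in thick ascending limb-like nuclei (189 to 729), and Egr1 in stroma-like nuclei (172 to 408).

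Fos, the inducible partner of AP-1, was nearly absent from most of the tissue. In proximal tubule-like nuclei it had 5, 2, 7 and 3 UMIs, which is 1.12 CPM (UMIs per 1000000 UMIs of the class) over the 4 libraries together. Intercalated cell-like nuclei held 47.7, 34.7, 99.6 and 255 CPM, and stroma-like nuclei 88.0, 162, 166 and 125. The intercalated value of C57BL/6 at 10 weeks lay above the other 3 libraries, with 54 UMIs against 7 to 18, and its interval did not overlap theirs. It was 7.36-fold (3.34 to 19.2) the level at 6 weeks in the same strain, and 2.56-fold (1.48 to 4.64) that of MRL/lpr at 10 weeks. In stroma-like nuclei all 4 intervals overlapped. The mean level over libraries was 124-fold higher in stroma-like than in proximal tubule-like nuclei. Carry-over levels were under 1 CPM in stroma-like and intercalated cell-like nuclei. Principal cell-like nuclei, below the minimum for comparison, held 5, 0, 9 and 2 Fos UMIs. There the interval of the strain ratio at 10 weeks lay above 1, opposite to intercalated cell-like nuclei.

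Jun, the AP-1 subunit that can act without Fos, was detected in every class. In proximal tubule-like nuclei its level was 64.2, 62.6, 91.5 and 43.0 CPM, from 284, 212, 366 and 145 UMIs. MRL/lpr at 10 weeks was the highest and C57BL/6 at 10 weeks the lowest, while the 2 libraries of 6-week mice lay together. The strain ratio was 1.03-fold (0.856 to 1.23) at 6 weeks and 2.13-fold (1.75 to 2.60) at 10 weeks. With age Jun in MRL/lpr was 1.42-fold (1.22 to 1.67) higher, whereas in C57BL/6 it was 1.46-fold (1.17 to 1.81) lower. Nuclei with a Jun UMI made up 4.53%, 5.33%, 5.93% and 3.27% of proximal tubule-like nuclei. After thinning every nucleus to 500 UMIs the shares were 2.67%, 2.97%, 3.97% and 2.06%, in the same order from high to low.

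The proximal tubule-like class was also split, after the values were seen, by UMIs of Slc5a2 and Slc5a12, markers of its early segment, against Slc7a13 and Cyp7b1, markers of its late one. In nuclei with more UMIs of the early pair, Jun was at 73.8, 57.6, 104 and 54.6 CPM. In nuclei with as many UMIs of either pair it was at 49.4, 77.4, 67.1 and 20.8. MRL/lpr was above C57BL/6 at 10 weeks in both groups of nuclei, by 1.91-fold (1.53 to 2.38) in the first. At 6 weeks the first group was 1.28-fold (1.03 to 1.60) higher in MRL/lpr, whereas the second was lower. The age ratio in C57BL/6 was 1.05-fold (0.823 to 1.35) lower in the first group, and most of the lower level at 10 weeks lay in the second.

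Outside the proximal tubule, Jun in intercalated cell-like nuclei was 91.0, 134, 232 and 156 CPM. Its ratio of 10 over 6 weeks was 2.55-fold (1.48 to 4.54) for MRL/lpr, and for C57BL/6 1.17-fold (0.680 to 2.02). Endothelium-like nuclei held 118, 80.7, 95.4 and 131 CPM and thick ascending limb-like nuclei 32.3, 43.9, 59.3 and 54.6, with intervals that overlapped throughout. Carry-over of Jun stayed at or below 15.1 CPM in these 3 classes. The strain ratio of Jun at 10 weeks had an interval above 1 in the proximal tubule, and in the other 3 classes compared the interval included 1. Podocyte-like nuclei, below the minimum for comparison, held 7, 8, 3 and 19 Jun UMIs. There the interval of the strain ratio at 10 weeks lay below 1, opposite to the proximal tubule.

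Egr1, a serum- and stress-inducible zinc finger factor, was highest in stroma-like nuclei at 198, 172, 408 and 391 CPM, from 9, 32, 27 and 22 UMIs. Both 10-week libraries lay above both 6-week libraries there. The age ratio for MRL/lpr was 2.06-fold (0.941 to 4.98), that for C57BL/6 2.27-fold (1.26 to 4.03). In stroma-like nuclei with more fibroblast than mural marker UMIs, a split also chosen after the values were seen, the ratios were 1.79-fold (0.687 to 5.47) and 1.47-fold (0.722 to 2.87).

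Egr1 in the proximal tubule was low, at 2.49, 2.36, 9.75 and 4.15 CPM. MRL/lpr at 10 weeks, with 39 UMIs against 8 to 14 in the other libraries, was 3.92-fold (1.97 to 8.48) above 6 weeks and 2.35-fold (1.25 to 4.68) above C57BL/6 of the same age. Intercalated cell-like nuclei held 1, 6, 11 and 41 UMIs, which is 4.33, 29.7, 60.9 and 194 CPM. C57BL/6 at 10 weeks was 6.52-fold (2.75 to 18.8) above 6 weeks. Counting all classes in which the 2 libraries compared held at least 5 UMIs together, Egr1 was higher at 10 weeks in 7 of 7 classes in MRL/lpr and in 4 of 4 in C57BL/6. The interval lay above 1 in 3 and 2 of these classes. Some rested on few UMIs, such as 2 and 4 in thick ascending limb-like and 1 and 4 in distal convoluted and connecting tubule-like nuclei of MRL/lpr. Classes of C57BL/6 below 5 UMIs went both ways. Podocyte-like nuclei held 3 and 1 and endothelium-like 3 and 0, whereas thick ascending limb-like held 1 and 3 and principal cell-like 0 and 2. Over all kept nuclei the levels were 4.83, 12.2, 19.9 and 21.9 CPM. No other member was higher at 10 weeks in all classes with at least 5 UMIs in both strains.

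**Figure D2:**
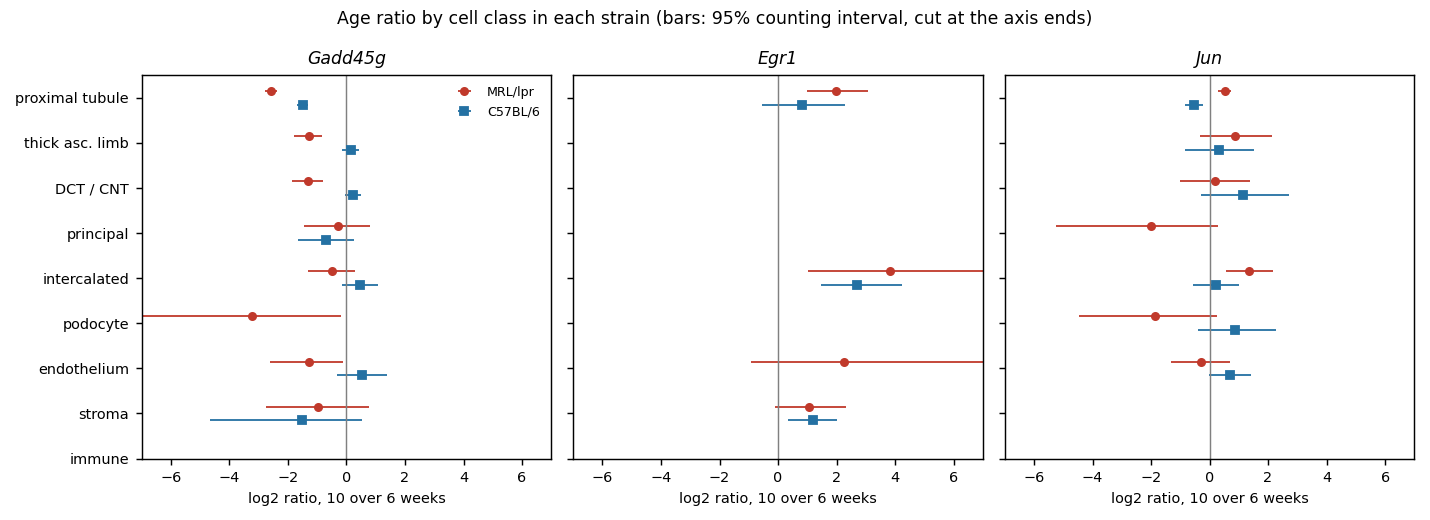
Log2 ratio of 10 over 6 weeks in MRL/lpr and in C57BL/6 by cell class for Gadd45g, Egr1 and Jun, with bars for the 95% counting interval; pairs with a count of 0 or with no count of 5 or more are not drawn. Gadd45g lies left of 0 in every class drawn for MRL/lpr, and Egr1 lies right of 0 in every class drawn.

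Atf3 was not measurable. It had 5, 9, 6 and 5 UMIs over all kept nuclei, and 0 in stroma-like and immune-like nuclei of every library. A count of 0, with 3 UMIs taken as its limit, allows levels up to 16.2 to 66.0 CPM in the stroma-like class, depending on the library. No class reached the minimum for comparison, so nothing can be said of its response.

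Klf2, the shear-responsive KLF factor of blood vessels, marked the endothelium-like class at 636, 878, 449 and 757 CPM, from 108, 370, 80 and 219 UMIs. Blood vessels are the known site of the gene, and its mean level over libraries was 103-fold that in proximal tubule-like nuclei. Both MRL/lpr libraries lay below both C57BL/6 libraries. The level in MRL/lpr was 1.38-fold (1.11 to 1.73) lower at 6 weeks and 1.68-fold (1.30 to 2.20) lower at 10 weeks. The older MRL/lpr library was 1.42-fold (1.05 to 1.92) below the younger one, and the older C57BL/6 library 1.16-fold (0.979 to 1.38). This last ratio, -0.21 on the log2 scale, was -0.61 in nuclei of at least 400 UMIs and -1.59 after thinning to 500 UMIs, where 9 and 35 UMIs were left. In nuclei with more UMIs of Plvap and Igfbp3 (peritubular vessels) than of Ehd3 and Nostrin (glomerular vessels), a split made after the values were seen, MRL/lpr was 1.29-fold (1.01 to 1.67) and 1.85-fold (1.33 to 2.63) lower. Over all endothelium-like nuclei the strain ratio at 10 weeks was -0.75 on the log2 scale. In nuclei of at least 400 UMIs it was -0.32, from 29 and 47 UMIs. It turned to 0.73 after thinning to 500 UMIs, where 13 and 9 UMIs were left. Most endothelium-like nuclei hold fewer than 500 UMIs, and the cause of these shifts was not tested. In the proximal tubule Klf2 was 6.33, 12.4, 2.50 and 5.04 CPM, with the older library lower by 2.53-fold (1.19 to 5.84) for MRL/lpr, and by 2.46-fold (1.37 to 4.61) for C57BL/6. Endothelium-like nuclei made up 3.73%, 13.0%, 5.38% and 8.91% of kept nuclei, and their part in the low proximal tubule level was not tested.

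Klf6, a KLF factor induced in injured tubules, was detected in all 9 classes, with means over libraries from 23.0 CPM in distal convoluted and connecting tubule-like nuclei to 97.5 in the sparse immune-like class. In the proximal tubule it was at 35.5, 22.4, 37.3 and 25.5 CPM. Both MRL/lpr libraries lay above both C57BL/6 libraries, by 1.58-fold (1.20 to 2.11) at 6 weeks and 1.46-fold (1.11 to 1.93) at 10 weeks. Its age ratios were 1.05-fold (0.833 to 1.32) and 1.14-fold (0.825 to 1.57). In endothelium-like nuclei, the one other class compared, it held 11, 22, 4 and 23 UMIs, and MRL/lpr was 3.54-fold (1.21 to 14.1) lower at 10 weeks.

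Btg2, an antiproliferative p53 target, was highest in podocyte-like and intercalated cell-like nuclei. Podocyte-like nuclei held 422, 106, 279 and 63.0 CPM, from 26, 9, 27 and 7 UMIs. Both MRL/lpr libraries lay above both C57BL/6 libraries with intervals that did not overlap at the same age. The ratio was 3.99-fold (1.81 to 9.67) at 6 weeks and 4.44-fold (1.89 to 12.1) at 10 weeks. The UMIs came from many nuclei, with 18 of 107, 9 of 178, 24 of 150 and 7 of 219 podocyte-like nuclei holding one. After thinning, 20.0%, 7.27%, 13.5% and 3.75% of nuclei held a Btg2 UMI. Carry-over of Btg2 was below 1 CPM in podocyte-like nuclei of every library.

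Gadd45a, the one other member compared in podocyte-like nuclei, did not share this strain pattern. It was at 292, 341, 186 and 441 CPM and was 2.37-fold (1.35 to 4.32) lower in MRL/lpr at 10 weeks. Btg2 itself went other ways elsewhere. In distal convoluted and connecting tubule-like nuclei, MRL/lpr was 2.63-fold (1.24 to 6.21) lower than C57BL/6 at 6 weeks and 1.65-fold (0.842 to 3.23) higher at 10 weeks. In intercalated cell-like nuclei Btg2 was at 186, 104, 183 and 288 CPM, with MRL/lpr 1.79-fold (1.04 to 3.18) above C57BL/6 in young mice, but 1.58-fold (1.02 to 2.49) below it in older ones. In principal cell-like nuclei it held 17, 3, 17 and 20 UMIs, and C57BL/6 at 6 weeks was 4.06-fold (1.17 to 21.6) below MRL/lpr. In proximal tubule-like nuclei it was at 3.56 to 6.79 CPM, and in endothelium-like nuclei at 48.4 to 94.2, with every interval of a ratio including 1.

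Gadd45a, a p53 and stress target that binds cell cycle kinases, was highest in podocyte-like and intercalated cell-like nuclei. The intercalated levels were 121, 163, 94.1 and 473 CPM, from 28, 33, 17 and 100 UMIs. C57BL/6 at 10 weeks stood apart, 2.89-fold (1.93 to 4.43) above 6 weeks and 5.02-fold (2.99 to 8.96) above MRL/lpr. In the proximal tubule the levels were 19.7, 13.9, 26.8 and 27.6 CPM. The older libraries were higher, by 1.36-fold (1.01 to 1.83) for MRL/lpr, and for C57BL/6 by 1.99-fold (1.39 to 2.89). In distal convoluted and connecting tubule-like nuclei the levels were 54.9, 34.0, 48.3 and 38.4, with overlapping intervals.

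Gadd45g, the GADD45 gene with most UMIs here, showed the largest difference among the members compared in the proximal tubule. Proximal tubule-like nuclei held 321, 235, 54.0 and 83.4 CPM, from 1421, 797, 216 and 281 UMIs. Both 10-week libraries lay far below both 6-week libraries, by 5.95-fold (5.15 to 6.90) for MRL/lpr, and for C57BL/6 by 2.82-fold (2.46 to 3.25). Young MRL/lpr was 1.37-fold (1.25 to 1.49) above C57BL/6, while at 10 weeks it was 1.54-fold (1.29 to 1.85) below. The share of nuclei with a Gadd45g UMI was 17.7%, 15.1%, 3.39% and 6.34%, and after thinning 12.3%, 10.5%, 2.15% and 3.52%. In podocyte-like nuclei, which held the gene at 1 to 3 nuclei per library, the unthinned share was 0.457 to 2.80%. Median depth was 741 to 858 UMIs in proximal tubule-like and 445 to 600.5 in podocyte-like nuclei. In nuclei with more UMIs of the early segment markers the levels at 10 weeks were 5.96-fold (4.93 to 7.25) and 2.70-fold (2.29 to 3.21) lower.

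Gadd45g in the distal nephron was low in 1 library. Thick ascending limb-like nuclei held 464, 662, 189 and 729 CPM, and distal convoluted and connecting tubule-like nuclei 293, 330, 118 and 384. MRL/lpr at 10 weeks was the lowest of the 4 libraries in both classes, and its interval did not overlap any other. It was 2.45-fold (1.78 to 3.44) and 2.49-fold (1.73 to 3.66) lower than at 6 weeks. In C57BL/6 the age ratio was 1.10-fold (0.902 to 1.35) and 1.16-fold (0.956 to 1.41) higher. The strain ratio at 10 weeks was 3.86-fold (2.84 to 5.34) and 3.26-fold (2.31 to 4.72) lower in MRL/lpr. Carry-over of Gadd45g came to 67.9, 35.3, 6.01 and 9.10 CPM in the thick ascending limb-like class and 54.1, 32.2, 7.82 and 10.1 in the distal convoluted and connecting tubule-like class.

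Intercalated cell-like nuclei held Gadd45g at 173, 198, 122 and 274 CPM and principal cell-like nuclei at 68.4, 106, 55.6 and 65.3. In principal cell-like nuclei of MRL/lpr at 6 weeks the carry-over level was 39.4. Endothelium-like nuclei held 124, 59.3, 50.5 and 86.4 CPM, and in MRL/lpr at 6 weeks the carry-over level was 75.6. With a stricter class gate that value rested on 3 UMIs, and the strain ratio at 6 weeks turned from 1.06 to -1.23 and the age ratio in MRL/lpr from -1.29 to 1.26 on the log2 scale. Over classes with at least 5 UMIs in the libraries compared, Gadd45g was lower at 10 weeks in 8 of 8 classes in MRL/lpr, with the interval below 1 in 5. In C57BL/6 it was lower in 3 of 7, with the interval below 1 in the proximal tubule alone. All classes other than the proximal tubule summed gave an older level 2.41-fold (1.98 to 2.94) lower for MRL/lpr, but for C57BL/6 1.18-fold (1.04 to 1.33) higher. In C57BL/6 the interval lay above 1 in 0 single classes. Class shares also differed in C57BL/6, with endothelium-like nuclei at 13.0% and 8.91% and stroma-like nuclei at 5.02% and 1.60% of kept nuclei. The part of these shares in the sum was not tested.

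Cdkn1a, which encodes the cell cycle inhibitor p21, was highest in endothelium-like nuclei at 88.3, 114, 89.8 and 82.9 CPM. All 4 intervals overlapped there, and MRL/lpr was 1.29-fold (0.710 to 2.48) below C57BL/6 in young mice, and 1.08-fold (0.538 to 2.13) above it in older ones. In the proximal tubule it was at 13.1, 9.45, 5.25 and 7.71 CPM, from 58, 32, 21 and 26 UMIs. MRL/lpr at 10 weeks was 2.50-fold (1.49 to 4.33) below 6 weeks, and the other 3 ratios had intervals that included 1.

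**Figure D3:**
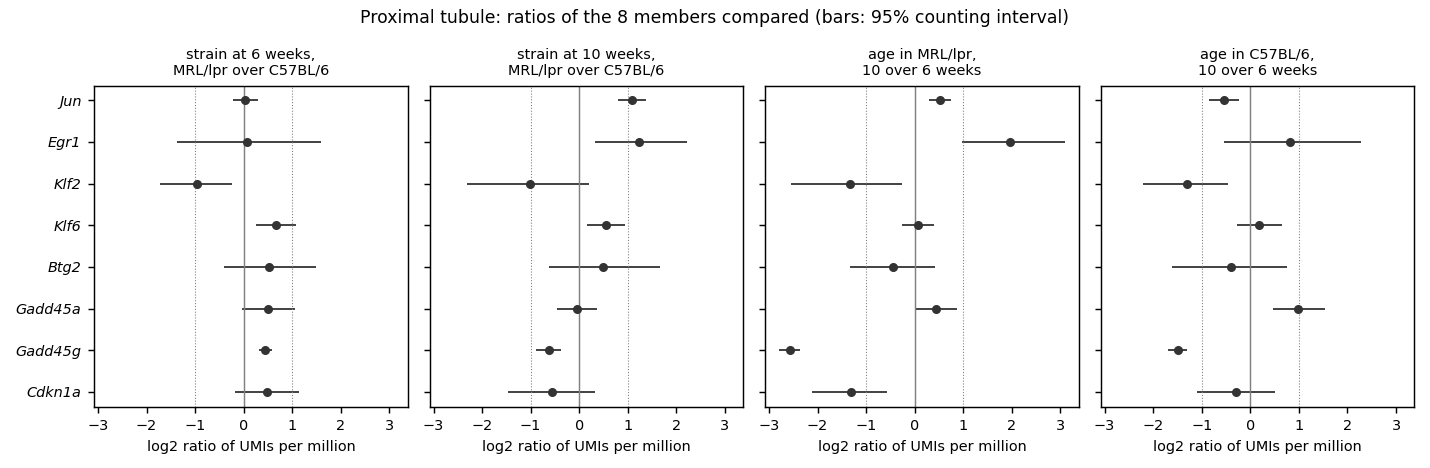
Log2 ratios of the 8 members compared in proximal tubule-like nuclei for the 4 comparisons, with bars for the 95% counting interval and dotted lines at 2-fold. Gadd45g lies farthest from 0 with age in MRL/lpr (-2.57), and Klf2 and Gadd45g lie past 2-fold lower with age in both strains.

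Strain and age comparisons share libraries, so their counts are set side by side only. For strain at 6 weeks, 0 of 8 members were at least 2-fold apart, where 8.78% of all genes compared were. At 10 weeks 3 of 8 were, Jun and Egr1 higher and Klf2 lower in MRL/lpr, against 10.8% of genes. With age 4 of 8 were in MRL/lpr, Egr1 higher and Klf2, Gadd45g and Cdkn1a lower, against 4.68%. In C57BL/6 2 of 8 were, Klf2 and Gadd45g, against 4.67%. Egr1 passed the minimum in the proximal tubule only through MRL/lpr at 10 weeks, so its part in the 3 of 8 and 4 of 8 partly follows from it. Klf2 and Gadd45g were 2-fold lower with age in both strains, which held for 0.467% of genes, and 0 of 8 members were 2-fold apart between strains in the same direction at both ages, against 4.26%. Most members had far fewer UMIs than Gadd45g and Jun, and a count near 50 passes 2-fold by counting error more readily than a deep one. The median log2 ratio of the 8 members was 0.46 and 0.22 for strain at 6 and 10 weeks and -0.19 and -0.35 for age in MRL/lpr and C57BL/6, beside -0.02, 0.07, 0.04 and -0.07 over all genes.

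In the other 8 classes, 5 of 23 pairs of member and class were at least 2-fold apart between strains at 6 weeks (9.63% of all gene and class pairs) and 9 of 23 at 10 weeks (11.1%). With age 9 of 23 were in MRL/lpr (7.98%) and 6 of 23 in C57BL/6 (5.14%). For strain, 2 pairs passed in the same direction at both ages (2.82% of all pairs), Btg2 in podocyte-like and Egr1 in intercalated cell-like nuclei, the latter with 1 UMI in MRL/lpr at 6 weeks. For age, 3 pairs passed in the same direction in both strains (0.497%), Fos and Egr1 in intercalated cell-like and Egr1 in stroma-like nuclei. Fos and Egr1 passed the minimum in intercalated cell-like nuclei only through C57BL/6 at 10 weeks, so their results there partly follow from it. Btg2 in podocyte-like nuclei passed it only with both MRL/lpr libraries counted, and its strain result there also partly follows from it.

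Intercalated cell-like nuclei, the acid-base cells of the collecting duct, held the clearest joint pattern. In C57BL/6 all 6 members compared there, Fos, Jun, Egr1, Btg2, Gadd45a and Gadd45g, were higher at 10 than at 6 weeks, with a median log2 ratio of 1.50 beside 0.00 over 4319 genes of the class. In MRL/lpr 3 of the same 6 were higher, with a median of 0.52. Fos and Egr1 passed the minimum in this class only through C57BL/6 at 10 weeks. That library held 54 of 90 Fos and 41 of 59 Egr1 UMIs. The count of 6 and the median of 1.50 are therefore partly set by the filter. Of 402 intercalated cell-like nuclei of C57BL/6 at 10 weeks, 36 held a Fos UMI, 35 an Egr1 UMI and 15 both. Nuclei with Fos had a median of 492 UMIs and those without 482. The highest count of Fos in 1 nucleus was 5, and the 5 nuclei with most Fos held 18 of its 54 UMIs. After thinning to 500 UMIs the share with Fos was 2.94%, 1.45%, 5.92% and 6.82%, so that the 2 libraries of 10-week mice lay close together, while the share with Gadd45a was 3.78%, 6.28%, 3.55% and 17.6%.

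Most of these UMIs came from nuclei with more UMIs of the type B markers Slc26a4 and Insrr than of the type A markers Slc4a1 and Aqp6, a split chosen after the values were seen. Such nuclei numbered 227, 239, 194 and 235, and in C57BL/6 at 10 weeks they held 48 of 54 Fos, 33 of 41 Egr1 and 72 of 100 Gadd45a UMIs. In that library they held 134262 of the 211616 UMIs of the class. Within them Fos was at 63.5, 40.1, 123 and 358 CPM and Btg2 at 191, 80.2, 207 and 372. The age ratio in C57BL/6 was 8.92-fold (3.81 to 25.5) for Fos, 9.20-fold (3.27 to 35.7) for Egr1, 3.34-fold (2.08 to 5.55) for Gadd45a and 4.64-fold (2.44 to 9.58) for Btg2. Nuclei with more type A marker UMIs were 71 to 107 per library with 0 to 2 UMIs of Fos, and their Gadd45a age ratio in C57BL/6 was 1.76-fold (0.655 to 5.50). Their Egr1 UMIs in C57BL/6 were 0 at 6 and 5 at 10 weeks. In C57BL/6 nuclei with as many UMIs of either pair, Gadd45a went from 157 to 443 CPM with age, from 3 and 12 UMIs. Fos there went from 52.5 to 222, from 1 and 6 UMIs, and Egr1 from 105 to 111, from 2 and 3 UMIs. Of the list of other early response genes, 6 of 7 compared in the intercalated class were higher at 10 weeks in C57BL/6 and 6 of 7 in MRL/lpr, where 50.0% and 50.1% of all genes of the class were higher.

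**Figure D4:**
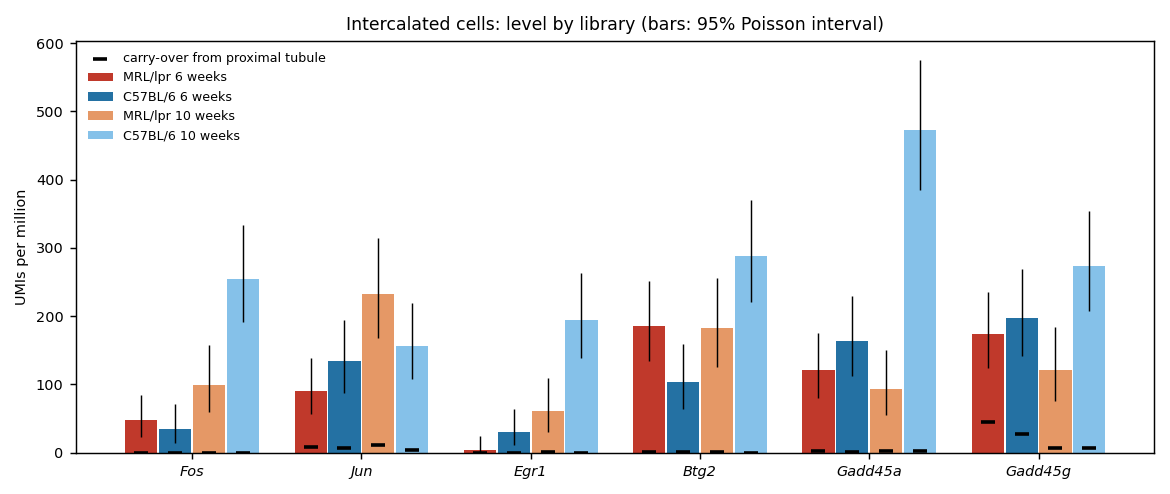
Level in intercalated cell-like nuclei (CPM) of the 6 members compared, with a column for each library, bars for the 95% Poisson interval and a dash at the carry-over level. C57BL/6 at 10 weeks is highest for 5 of 6 members, and Jun is highest in MRL/lpr at 10 weeks (232 against 156). Fos and Egr1 passed the minimum only through C57BL/6 at 10 weeks.

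Related genes were counted in the proximal tubule from lists of the same pathways. Of all genes compared in this class, 47.8% and 56.6% were higher in MRL/lpr than in C57BL/6 at 6 and 10 weeks. At 10 over 6 weeks 54.2% were higher in MRL/lpr and 41.9% in C57BL/6. These shares are the background for each list counted in this class here and below. Of 36 other early response genes found, 24 were compared. Between strains 11 were higher and 13 lower in MRL/lpr at 6 weeks and 9 and 15 at 10 weeks, with medians of -0.22 and -0.30. With age 14 were higher and 10 lower in MRL/lpr, and 12 and 12 in C57BL/6, with medians of 0.09 and -0.05. Junb, a relative of Jun, was at 17.9, 7.97, 37.3 and 17.2 CPM, so it was over 2-fold higher in MRL/lpr whichever the age, and in older mice of either strain. Ier2, another immediate early gene, was at 30.3, 14.8, 48.0 and 16.0. Dusp1, a phosphatase that ends stress kinase signals, went the other way at 153, 220, 50.5 and 195, and MRL/lpr at 10 weeks was again the library that stood apart. Ccn2 at 6.11, 14.8, 4.00 and 8.90 and Cebpb at 3.39, 10.0, 2.25 and 7.71 were both lower in MRL/lpr than in C57BL/6 of the same age. Zfp36l1, an RNA-binding protein, was at 111, 94.8, 146 and 183.

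Heat shock genes were counted because they respond to handling and heat. Of 12 compared in the proximal tubule, 7 were higher and 5 lower in MRL/lpr at 6 weeks, and 2 higher and 10 lower at 10 weeks, with medians of 0.20 and -0.45. With age in MRL/lpr 2 were higher and 10 lower, with a median of -0.74, and in C57BL/6 5 were higher and 7 lower, with a median of -0.09. Over all genes 54.2% were higher with age in MRL/lpr in this class. Elsewhere, 7 of 8 heat shock genes were lower with age in MRL/lpr in thick ascending limb-like nuclei, 9 of 9 in distal convoluted and connecting tubule-like, 6 of 7 in principal cell-like, 6 of 6 in intercalated cell-like and 3 of 3 in podocyte-like nuclei. Endothelium-like nuclei had 3 higher and 5 lower, with a median of -0.05, and stroma-like nuclei 2 higher and 1 lower, with a median of 0.60. In these 7 classes 47.4 to 50.1% of all genes were higher. Hspa8, a constitutive chaperone, was at 222, 359, 133 and 431 CPM in the proximal tubule and Hspe1, a mitochondrial chaperone, at 292, 334, 144 and 231. Cryab was at 2.71, 5.61, 3.50 and 9.50. MRL/lpr at 10 weeks is also the library of lowest mitochondrially encoded and ribosomal protein shares, and the part of these shares in the result was not tested. Hspa1a and Hspa1b, inducible chaperones chosen for mention after their values were seen, held 17 to 28 and 7 to 9 UMIs in a whole library, and Fosb held 1 to 4.

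Of 15 p53 targets compared in the proximal tubule, 10 and 9 were higher in MRL/lpr at 6 and 10 weeks and 5 and 6 lower, with medians of 0.16 and 0.04. Of all genes of the class 47.8% and 56.6% were higher. With age 6 targets were higher and 9 lower in MRL/lpr and 5 and 10 in C57BL/6, with medians of -0.07 and -0.11. Of all genes 54.2% and 41.9% were higher with age. Bax, which promotes cell death, was at 189, 136, 162 and 125 CPM and Rps27l at 191, 172, 97.5 and 144. The nuclease gene Aen, at 7.92, 27.2, 8.25 and 30.6 CPM, was over 2-fold lower in MRL/lpr whichever the age. Of 11 integrated stress response genes compared, 5 were higher and 6 lower in MRL/lpr at 6 weeks and 3 and 8 at 10 weeks, with medians of -0.10 and -0.65. With age 5 were higher and 6 lower in MRL/lpr and 6 and 5 in C57BL/6, with medians of -0.19 and 0.08. Slc7a11, the cystine transporter, was an exception at 35.1, 1.18, 30.5 and 2.37 CPM, from 155, 4, 122 and 8 UMIs. Herpud1 was at 315, 510, 225 and 366, and Vldlr at 94.3, 74.7, 79.8 and 90.2.

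Among 19 relatives of the members compared in the proximal tubule, 7 were higher and 12 lower in MRL/lpr at 6 weeks and 9 and 10 at 10 weeks, with medians of -0.13 and -0.10. With age 11 were higher and 8 lower in MRL/lpr and 6 and 13 in C57BL/6, with medians of 0.10 and -0.10. Klf12 was at 384, 323, 529 and 299 CPM and Klf9 at 175, 258, 148 and 203. Klf12 was highest in MRL/lpr at 10 weeks and Klf9 in C57BL/6 at 6 weeks. The lists share genes, so their counts and medians are not separate readings. Junb, Jund, Klf4, Klf10 and Btg1, for example, are both relatives and other early response genes. Atf4 is both a relative and an integrated stress response gene, and Sesn2 is in the p53 and integrated stress response lists.

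The genes most like the 3 deepest members were found by Pearson correlation of log2(CPM + 10) over 36 points, 9 classes in 4 libraries, among 6320 genes. These are descriptions, since points of a library share its depth and carry-over. Klf2 was most like the endothelial genes Tie1 (0.91), Adgrl4 (0.90) and Pecam1 (0.90), of which Adgrl4 and Pecam1 were among the markers used to place nuclei. Jun was most like Sgpp1 (0.71), Elovl5 (0.71) and Erg28 (0.62). Gadd45g was most like Hadhb (0.79), Nr2f6 (0.78) and Atp5b (0.78). Among the members themselves Klf2 and Cdkn1a, both highest in endothelium-like nuclei, had a correlation of 0.83 and Fos and Egr1 of 0.82.

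A difference shared by all classes was sought in each of the 4 comparisons. Egr1 with age in both strains and Gadd45g with age in MRL/lpr lay on one side in every class with at least 5 UMIs. How many of all genes lay on one side in this way was not counted. For Egr1 in C57BL/6 these were 4 classes, and in MRL/lpr some rested on few UMIs, such as 1 and 4 in distal convoluted and connecting tubule-like nuclei. For Gadd45g they included podocyte-like nuclei, with 6 and 1 UMIs, and endothelium-like nuclei, where the ratio turned with the stricter class gate. Klf2 between strains at 6 weeks also did, lower in MRL/lpr in 7 of 7 classes, with 5 of 6 at 10 weeks. Endothelium-like nuclei, where Klf2 was highest, made up 3.73% of kept nuclei in MRL/lpr and 13.0% in C57BL/6 at 6 weeks. Carry-over from them was not computed, and its part in the Klf2 level of the other classes was not tested. Jun between strains at 10 weeks was higher in MRL/lpr in 5 of 8 classes, Klf6 in 3 of 9, Btg2 in 6 of 9 and Gadd45a in 4 of 7. Egr1 was higher there in 6 of 7 classes, with the interval above 1 in 2, and Fos in 4 of 5, with 1. For both, the class that was lower was the intercalated cell-like one. Gadd45g was lower in MRL/lpr at 10 weeks in 6 of 7 classes, with the interval below 1 in 4. Cdkn1a was lower in 4 of 5, with the interval below 1 in 0. No library was highest for all members in any class in which 6 or more members were compared.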

How the data were processed

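Single-nucleus RNA counts were deposited as raw UMI counts per gene and nucleus for 4 libraries, 1 per group. The count tables were made by the authors with Cell Ranger, version 5.0.0 per the file headers and version 3.1.0 per the submitters' processing notes. For the genome build and for intron counting the answer is: not given in the sources used here. The members and lists were chosen with earlier results of these data known.

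Nuclei with at least 200 genes and at most 10% mitochondrial UMIs were kept. A proximal tubule-like nucleus had at least 3 UMIs of that class's markers and at most 1 of any other class. A nucleus of another class had at least 2 UMIs from at least 2 of its markers, at least 2 times those of any further class, and no more proximal tubule UMIs than its own. No doublet caller was run, and the gate leaves out nuclei with mixed markers. UMIs were summed per class and library and scaled to CPM, UMIs per 1000000 UMIs. A gene was compared in a class where its 4 libraries held 50 UMIs or more. Levels carry exact Poisson and ratios conditional exact binomial 95% intervals, and shares of nuclei exact binomial ones. Each comparison sets 1 library against 1 other, and no test was run; an additive fit of strain and age over the 4 libraries, which leaves 1 residual degree of freedom, was not made. Thinning to 500 UMIs left out 2036, 4023, 3193 and 3669 shallower nuclei.

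All 10 members are named, and from each list the 2 genes with most UMIs in the proximal tubule-like class and any gene 2-fold apart in the same direction in both strains or at both ages. Genes with like patterns had at least 1000 UMIs. Promoters came from RefSeq tables of GRCm38.p6. The scripts were tested on simulated data. Python 3.11.15, numpy 2.4.6, scipy 1.17.1, pandas 2.3.3 and matplotlib 3.10.9 were used. In all, 10 alternatives were tried for each comparison. Splits of classes by further markers were chosen after seeing the data.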

Additional observations from a re-analysis of the deposited data

Results flagged for a closer look

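The age ratio of Jun in proximal tubule-like nuclei lay above 1 in MRL/lpr and below 1 in C57BL/6, so that the log2 ratios of the strains differed by 1.05. The strain ratio of Gadd45g in the same nuclei lay above 1 at 6 weeks and below 1 at 10 weeks, a difference of -1.08 on the log2 scale (10 less 6 weeks). The strain ratio of Btg2 in intercalated cell-like nuclei likewise lay above 1 at 6 weeks and below 1 at 10 weeks, a difference of -1.50. Each pair of effects went opposite ways with counting intervals on either side of 1. These differences were not tested.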

How the results depend on the processing

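Limits are few libraries and few UMIs: 1 library a group leaves the spread between animals unknown, and counting intervals do not hold it. No paired analysis was run. Without MRL/lpr at 10 weeks no strain comparison at that age remains. Of 824 ratios of a member in a class open to change under an alternative, 812 stayed within the counting interval of the value reported, 9 lay outside it and 3 turned. A change of the gene minimum moves no ratio and is not counted. Thinning gave only 48 of 124 ratios, of which 5 lay outside and 1 turned. The cause of each shift below was not tested.

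Turned were Gadd45g in endothelium-like nuclei with the stricter class gate (strain at 6 weeks -1.23, from 3 and 22 UMIs, and age in MRL/lpr 1.26), and Klf2 there at 10 weeks between strains after thinning (0.73). Over 1.5 times apart after thinning were also Klf2 there with age in C57BL/6 (-1.59), Gadd45a in the proximal tubule between strains at 6 weeks (1.32 against 0.50) and Gadd45g in intercalated cell-like nuclei between strains at 10 weeks (-0.30 against -1.17). The member median for age in C57BL/6 in the proximal tubule was 0.051 with the stricter gate (5 members), and that for strain at 10 weeks outside it was 0.14 with no gene minimum.

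Medians are on the log2 scale, and counts are of members at least 2-fold apart. With the stricter gate the proximal tubule median was -0.19 for strain at 10 weeks and 0.18 for age in MRL/lpr, where the count was 2. With at least 400 UMIs a nucleus, outside the proximal tubule the count was 3 for strain at 6 weeks and the median -1.03 for strain at 10 weeks. Without the nuclei of most UMIs the proximal tubule count for strain at 6 weeks was 1. With thinning the proximal tubule count for strain at 6 weeks was 2, and the medians were -0.33 for strain at 10 weeks and -0.67 for age in MRL/lpr. Outside it, thinning gave counts of 0 and 3 for strain at 6 and 10 weeks and 2 and 3 for age in MRL/lpr and C57BL/6, and a median of -0.84 for strain at 10 weeks. With a gene minimum of 20 UMIs the median outside it was 0.15 for strain at 6 weeks, and the counts were 10, 14 and 10 of 38 for strain at 6 weeks, strain at 10 weeks and age in C57BL/6. With no gene minimum the counts were 17 of 55, 29 of 64, 25 of 57 and 19 of 60 in the 4 comparisons.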
